A study of Mus musculus with 6 samples.

Results

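Interferon-response genes were followed in fat progenitors of mice fed rosiglitazone. With earlier results of these data known, the 34 genes were chosen by name as interferon-stimulated genes and their regulators. Of these, 33 had at least 1 probe on the array under their symbol (57 probes in all), and Ifi44 was not analysed here. A probe was kept when its detection p-value was under 0.05 on at least 3 of the 6 arrays. This left 42 probes for 27 genes, among 16442 kept probes for 9760 named genes. Each gene is given by its brightest kept probe unless stated otherwise.

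The cells were GFP-positive stromal-vascular cells sorted from inguinal, interscapular and gonadal white fat of adult AdipoTrak mice (2 to 6 months old) of the strain PPARgamma-tTA;tetO-H2B-GFP, a reporter line that both groups carried. In this line a tetracycline transactivator driven by PPARgamma sequences switches on a green histone, so the sort follows reporter expression and is not a cell type in itself. One group ate normal chow with 0.0075% rosiglitazone, a thiazolidinedione (TZD) agonist of PPARgamma, for 2 months, and the other ate normal chow (untreated). Each group had 3 cohorts of 3 to 4 mice, and each array stands for a cohort, so p-values measure the spread between pooled cohorts. The question behind the design is what 2 months on a PPARgamma agonist does to transcript levels in these cells.

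Interferons are secreted proteins that put cells into an antiviral state. Type I interferons bind the receptor chains IFNAR1 and IFNAR2. The kinases JAK1 and TYK2 then activate STAT2, which acts in a complex with IRF9 on a promoter element called the interferon-stimulated response element (ISRE). Interferon gamma acts through the receptor chains IFNGR1 and IFNGR2 and a promoter element called the gamma-activated site (GAS). In white fat, stromal cells and macrophages both respond to interferons, and interferon signalling has been linked with the inflammation of obesity.

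Promoter stretches that hold the ISRE core are shown because this element is the one through which the type I response is known to act, and they stand for the regulators, effectors and restriction factors described below. The ISRE core searched was GAAA, then any 2 bases, then GAAA, and the GAS core was TTCNNNGAA, on both strands and with overlapping matches allowed, in a RefSeq window of 250 bases before to 50 bases after each start (GRCm38.p6). Capitals mark the ISRE core on either strand, so a match on the opposite strand reads as TTTC, any 2 bases, TTTC, and the stretch runs 5′ to 3′ on the strand of the gene.
Stat2, chr10:128270256-128270305, plus strand: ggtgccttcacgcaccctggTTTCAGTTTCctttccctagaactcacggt
Isg15, chr4:156200855-156200916, minus strand: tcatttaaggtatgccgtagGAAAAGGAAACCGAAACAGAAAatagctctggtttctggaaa
Ifit3, chr19:34583353-34583436, plus strand: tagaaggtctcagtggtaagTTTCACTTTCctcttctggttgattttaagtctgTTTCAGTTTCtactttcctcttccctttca
Gbp3, chr3:142559979-142560034, plus strand: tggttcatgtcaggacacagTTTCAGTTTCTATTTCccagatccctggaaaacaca
Bst2, chr8:71537567-71537622, minus strand: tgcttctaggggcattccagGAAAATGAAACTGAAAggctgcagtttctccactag
Rsad2, chr12:26456543-26456592, minus strand: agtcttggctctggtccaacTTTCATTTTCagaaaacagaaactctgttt

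The promoter table matched 27 of the 34 genes (not Oas2, Usp18, Mx1, Mx2, Parp9, Rtp4 and Ifi27). The ISRE core was in the window of 13 of these 27 genes (48.1%), against 3.99% of the 27025 genes of the table. Isg15 had 3 overlapping matches and Ifit1, Ifit3, Gbp3, Bst2, Ifitm3 and Oas1a had 2 each. The GAS core was in the window of 8 of the 27 genes (29.6%), among them Irf1, Eif2ak2 and Samhd1, against 9.55% of all genes. Bst2 and Ifitm3 each had a GAS match that overlapped an ISRE match. These are matches of letters and do not show that a factor binds there.

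The 6 arrays had total intensities of 10330923, 13615604 and 11663031 units with rosiglitazone and of 14510640, 9478692 and 14831319 units untreated, and each array detected between 34.2% and 38.4% of its 45281 probes. The number of arrays limits the precision. Markers of adipose progenitors were present in both groups: 11 of 13 listed genes had a kept probe, led by Dcn, Lum and Thy1, and their summed level, in normalized intensity units above the offset, was 43440 to 46970 with rosiglitazone and 37990 to 44970 untreated, with 0 past the threshold. Macrophage and monocyte markers were present too, in 16 of 20 listed genes, led by Lyz2, Laptm5 and Cd52. Their summed level was 2538 to 6477 with rosiglitazone and 19240 to 24420 untreated, and 15 of the 16 fell. In bulk samples such as these, fewer cells of a type and less RNA per cell cannot be told apart.

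No interferon-response gene passed the threshold with rosiglitazone by its brightest probe. Of the 27 genes, 0 were higher and 0 lower at an adjusted p of 0.05 in limma, where 2.81% of all 9760 genes passed, 0.594% higher and 2.21% lower. At an unadjusted p under 0.05 there were 3 of 27, namely Cmpk2 and Lgals3bp with positive changes and Bst2 with a negative one, against 13.0% of all genes. The groups did not overlap for 5 of the 27, Irf9, Eif2ak2, Bst2, Cmpk2 and Lgals3bp, which is 18.5%, and 18.5% of all genes did not overlap. The median log2 change was 0.13 over the 27 genes, from -0.59 for Samhd1 to 0.81 for Cmpk2, and 0.04 over all genes. Changes were positive for 20 genes and negative for 7, or 74.1% positive against 55.7% of all genes. The median moved with single arrays. Leaving out rosiglitazone replicate 2 gave 0.22 and leaving out rosiglitazone replicate 3 gave 0.0696. Leaving out untreated replicate 1, 2 or 3 gave 0.0717, 0.0011 and 0.24.

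The precision of these values can be read from their intervals. The 95% interval of the log2 change had a median half-width of 0.48 over the 27 genes, and for 24 of them it lay wholly within -1 and 1. Those that reached beyond a log2 change of 1 in size were Cmpk2, Ifit3 and Samhd1. A p-value that missed the threshold does not show that a gene did not differ.

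**Figure D1:**
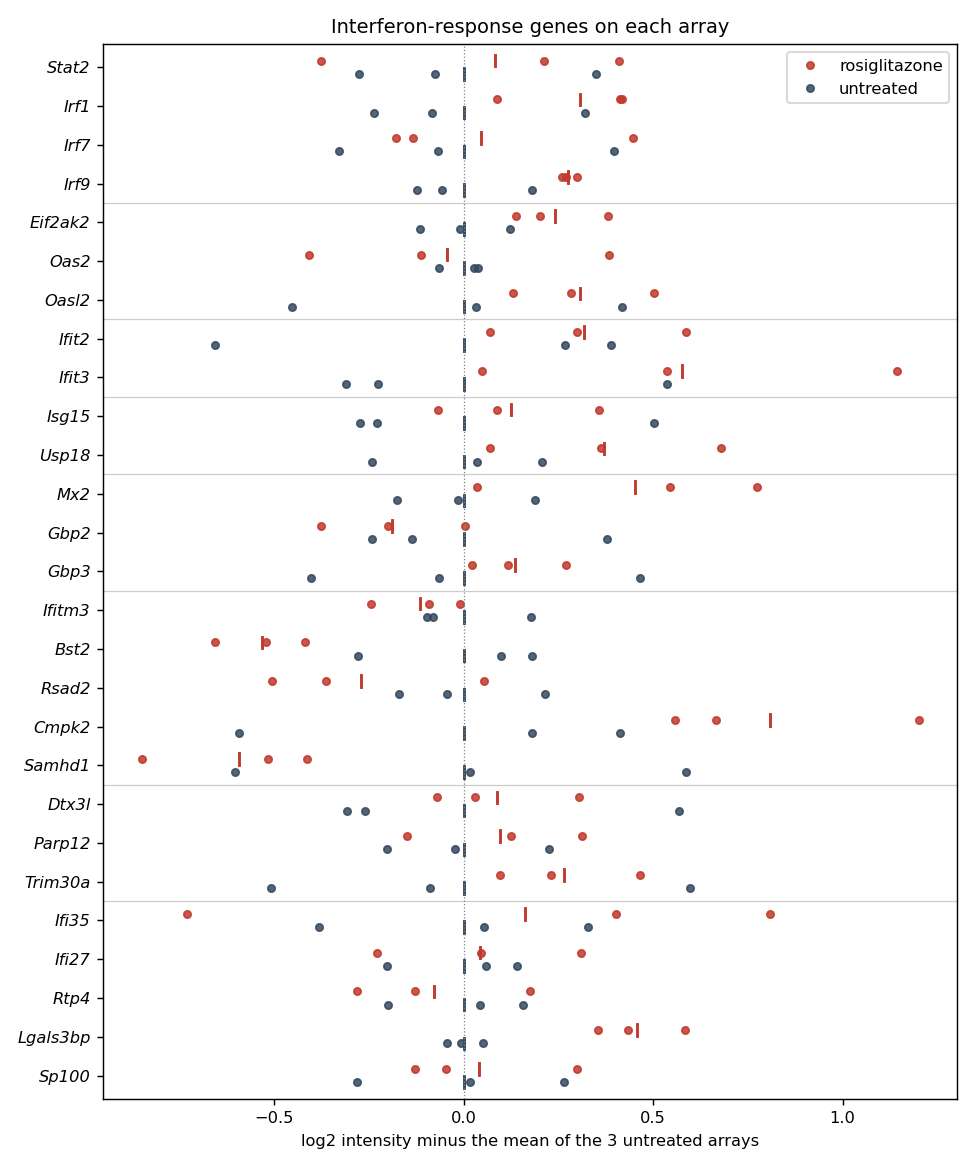
Log2 intensity of the 27 interferon-response genes with a kept probe, on each array, minus the mean of the 3 untreated arrays. Points are arrays, rosiglitazone (red) above untreated (dark), short bars are group means and grey lines part the roles. The points of the groups intermingle for most genes, and lie apart for Irf9, Eif2ak2, Bst2, Cmpk2 and Lgals3bp.

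**Figure D2:**
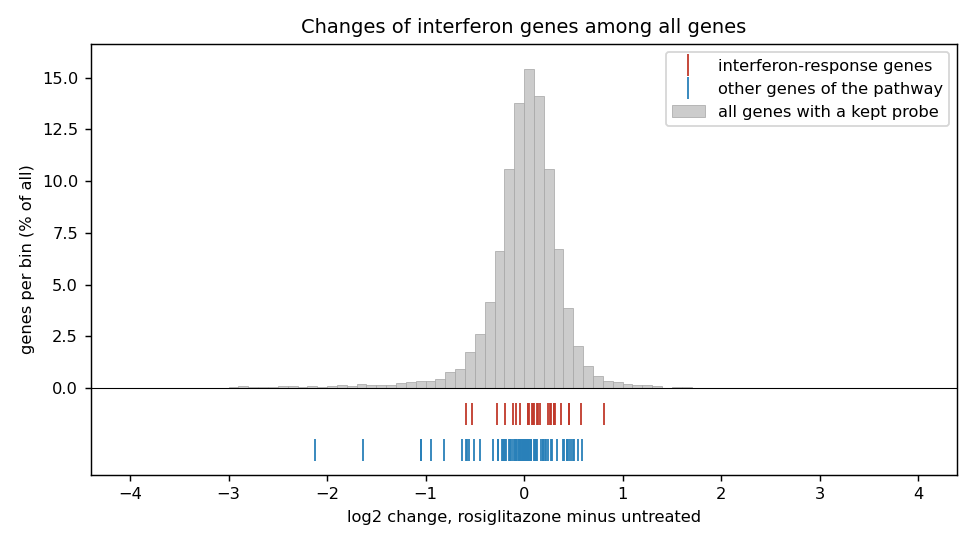
Distribution of the log2 change (rosiglitazone minus untreated) over the 9760 genes with a kept probe, as the percent of genes per bin, with red ticks for the 27 interferon-response genes and blue ticks for 79 other genes of the pathway. The red ticks lie between -0.59 and 0.81, and the blue ticks reach to -2.13.

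All 4 transcription factors among the 27 genes were detected on all 6 arrays. Stat2, a transcription factor of the type I response, had 6.51, 5.72 and 6.31 log2 units on the rosiglitazone arrays, against 6.02, 5.82 and 6.45 log2 units untreated. The groups overlapped, with the lowest value on a rosiglitazone array, and the log2 change was 0.08 (95% interval -0.46 to 0.63, limma adjusted p = 0.94). Irf9, the DNA-binding partner of STAT2, had 7.77, 7.78 and 7.81 log2 units with rosiglitazone, against 7.45, 7.39 and 7.69 untreated. All 3 rosiglitazone arrays lay above all untreated arrays, and the log2 change of 0.28 did not pass (interval -0.10 to 0.65, adjusted p = 0.58). The other kept Irf9 probe overlapped between groups, with a log2 change of 0.13.

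Irf7, which amplifies the production of type I interferon, had 6.11, 5.49 and 5.53 log2 units with rosiglitazone, against 5.60, 5.34 and 6.06 untreated. Each group had 1 high array, and the log2 change was 0.05 (interval -0.49 to 0.58, adjusted p = 0.97). Irf1, a factor strongly induced by interferon gamma, had 12.48, 12.81 and 12.80 log2 units with rosiglitazone, against 12.31, 12.15 and 12.71 untreated. The groups overlapped at their edges, and the log2 change was 0.31 (interval -0.14 to 0.75, adjusted p = 0.62). Irf1 had 5 kept probes, all with positive log2 changes, from 0.18 to 0.45, and 0 passed. On 1 of them, at 5.28, 5.50 and 5.64 log2 units with rosiglitazone against 5.07, 4.82 and 5.19 untreated, the groups did not overlap (adjusted p = 0.36).

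Among RNA sensors and antiviral kinases or synthetases, 3 of 5 genes were kept. Eif2ak2, the kinase PKR that halts translation on double-stranded RNA, had a log2 change of 0.24, with 9.55 to 9.79 log2 units with rosiglitazone and 9.29 to 9.53 untreated. The groups did not overlap, by a margin smaller than the spread within either, and the change did not pass (adjusted p = 0.66). Oasl2, an oligoadenylate synthetase-like protein, had 8.83, 8.68 and 9.05 log2 units with rosiglitazone, against 8.58, 8.10 and 8.97 untreated. Its log2 change of 0.31 did not pass (interval -0.21 to 0.83, adjusted p = 0.68), and its 2 dimmer kept probes had changes of -0.21 and -0.01. The change was 0.0806 without untreated replicate 2 and 0.52 without untreated replicate 3. Oas2, a synthetase that activates an RNA-degrading pathway, had a log2 change of -0.045, with rosiglitazone arrays spread from 5.42 to 6.21 log2 units around untreated arrays at 5.76 to 5.86. The sensor gene Ifih1 and the synthetase gene Oas1a had no kept probe; Ifih1 was detected on 0 arrays and Oas1a on 1 untreated array.

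The IFIT proteins bind viral RNA and hinder its translation. Ifit3 had 9.42, 8.94 and 10.03 log2 units with rosiglitazone, against 8.58, 8.66 and 9.42 untreated. Replicate 3 was the high array of both groups, and the groups overlapped. The log2 change was 0.58 (interval -0.10 to 1.25, adjusted p = 0.52), and the other kept Ifit3 probe had 0.31. Without rosiglitazone replicate 3 the change of the brightest probe was 0.29. The probes can share signal with the close copy Ifit3b. Ifit2 had 5.83, 6.06 and 6.35 log2 units with rosiglitazone, against 6.15, 5.10 and 6.03 untreated, with 1 low untreated array (log2 change 0.32, interval -0.30 to 0.94, adjusted p = 0.73); without that array, untreated replicate 2, it was -0.0096. Ifit1 was detected on 0 arrays, which gives no level for this gene.

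ISG15 is a ubiquitin-like protein attached to other proteins in the interferon response, and USP18 removes it and also damps the type I receptor. Usp18 had 8.56, 7.96 and 8.25 log2 units with rosiglitazone, against 7.92, 7.64 and 8.09 untreated. The groups overlapped between 7.96 and 8.09, and the log2 change of 0.37 did not pass (interval -0.09 to 0.83, adjusted p = 0.55). The other kept Usp18 probe had a log2 change of 0.17. Isg15, whose promoter holds 3 ISRE matches (above), had a log2 change of 0.13 (interval -0.40 to 0.65, adjusted p = 0.89), with arrays from 7.60 to 8.02 log2 units with rosiglitazone inside the untreated range of 7.39 to 8.17.

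Of the interferon-induced GTPases, Mx2, a dynamin-like antiviral protein, had 6.75, 6.98 and 6.24 log2 units with rosiglitazone, against 6.19, 6.39 and 6.03 untreated. A pair of rosiglitazone arrays lay above the untreated range and 1 within it, and the log2 change of 0.45 did not pass (interval -0.04 to 0.94, adjusted p = 0.47). Gbp2 and Gbp3 encode guanylate-binding proteins that attack vacuoles holding microbes. Gbp2 had a log2 change of -0.19 and Gbp3 of 0.14, both with overlapping groups, and the other kept Gbp3 probe had -0.13. Without untreated replicate 3, Gbp2 had -0.0008. Mx1 was detected on 1 of 6 arrays and was not tested.

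Membrane and nucleotide-acting restriction factors held the changes farthest from 0, in both directions. Cmpk2, a mitochondrial nucleotide kinase, had 6.38, 6.27 and 6.91 log2 units with rosiglitazone, against 5.89, 5.12 and 6.12 untreated. Every rosiglitazone array lay above every untreated array, and the log2 change was 0.81, or 1.75-fold higher (interval 0.19 to 1.43), but it did not pass (unadjusted p = 0.0153, adjusted p = 0.25). Without background correction its log2 change was 0.38. Its neighbour Rsad2, which encodes viperin and starts on the opposite strand of chromosome 12, had 7.96, 7.82 and 8.38 log2 units with rosiglitazone, against 8.28, 8.15 and 8.53 untreated. Its log2 change was -0.27, with overlapping groups (interval -0.72 to 0.18, adjusted p = 0.67).

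Bst2 encodes tetherin, which holds budding virus particles at the cell surface. It had 7.18, 7.42 and 7.32 log2 units with rosiglitazone, against 7.56, 7.94 and 8.02 untreated. The rosiglitazone arrays were all lower than the untreated arrays, with a log2 change of -0.53 (interval -0.94 to -0.12) that did not pass (unadjusted p = 0.0165, adjusted p = 0.26). Ifitm3, which blocks the entry of viruses, was bright on every array, with 13.88, 13.79 and 13.64 log2 units with rosiglitazone, against 14.06, 13.79 and 13.80 untreated, and had a log2 change of -0.12 (interval -0.50 to 0.27, adjusted p = 0.86). Its probe can share signal with other genes of the IFITM family.

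Samhd1, a deoxynucleotide hydrolase that restricts retroviruses and is abundant in myeloid cells, was the gene with a probe past the threshold. Of the 42 kept probes, 0 were higher and 1 was lower with rosiglitazone, and of all 16442 kept probes 2.34% passed, 0.493% higher and 1.85% lower. This Samhd1 probe, dimmer than the brightest and singled out after its values were seen, had 5.32, 5.42 and 5.61 log2 units with rosiglitazone, against 6.26, 6.22 and 6.99 untreated. The groups did not overlap, and the level fell by 1.04 on the log2 scale, 2.05-fold lower (interval -1.55 to -0.53, adjusted p = 0.0466).

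The brightest Samhd1 probe had 6.99, 7.33 and 7.43 log2 units with rosiglitazone, against 7.86, 7.24 and 8.43 untreated. Here 1 untreated array lay within the rosiglitazone range, and the log2 change of -0.59 did not pass (interval -1.21 to 0.03, adjusted p = 0.45). It was -0.89 without untreated replicate 2 and -0.30 without untreated replicate 3. A probe that was not kept was detected on 0 rosiglitazone arrays and 2 untreated arrays. The call of the dimmer probe held in 8 of 18 other settings. These include the looser threshold of 0.1 on the same fit, which it passes by construction. They also include the 6 fits without 1 array, of which it held in 1. The macrophage markers fell over the same arrays, with a median log2 change of -2.39 over their 16 genes, and their part in the Samhd1 value was not tested.

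**Figure D3:**
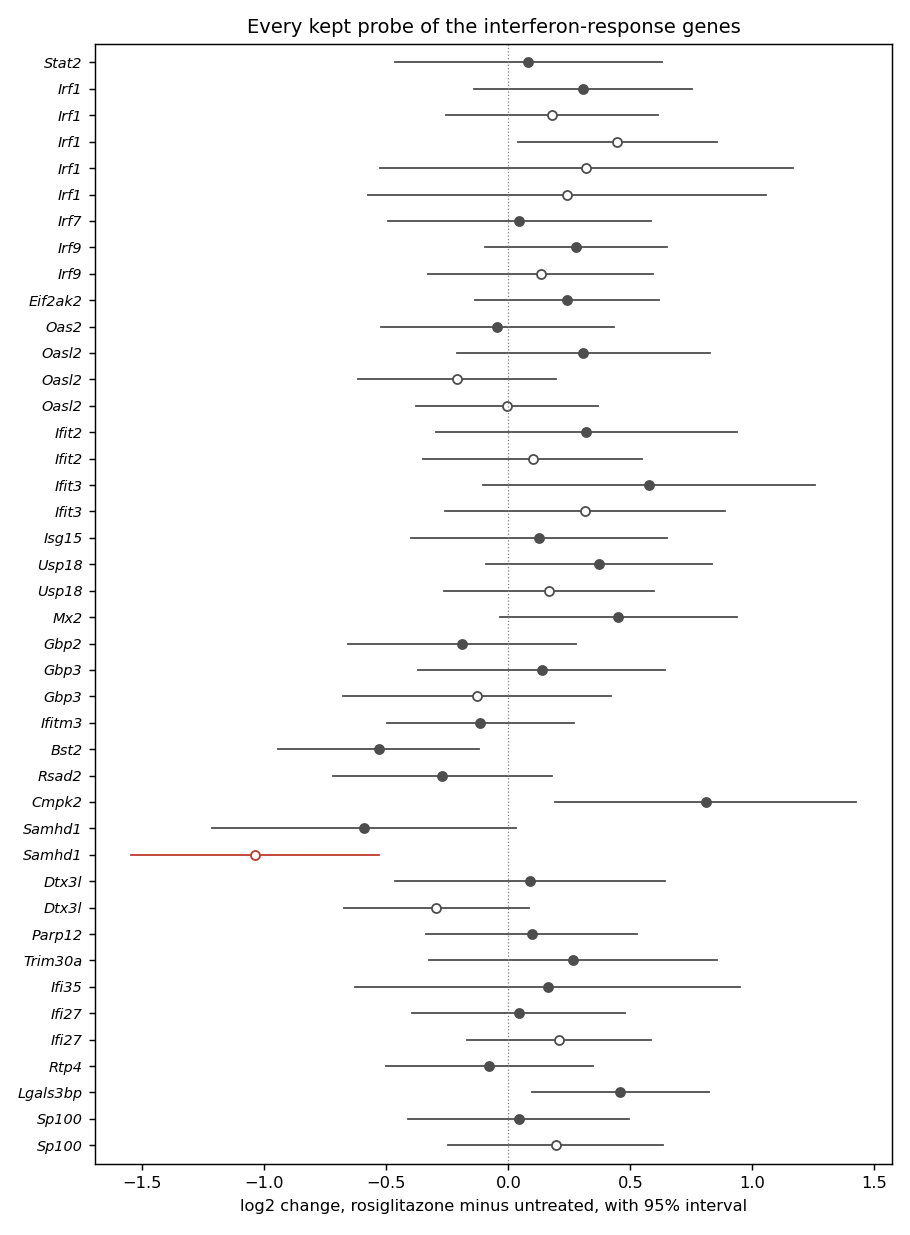
Log2 change (rosiglitazone minus untreated) with its 95% interval for each of the 42 kept probes of the interferon-response genes. Filled points are the brightest probe of a gene and open points its other probes. The red Samhd1 probe, at -1.04, is the 1 probe past an adjusted p of 0.05.

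The PARP and ubiquitin ligase genes and the remaining interferon-induced genes lay close to 0 with few exceptions. Lgals3bp, a secreted glycoprotein that binds galectin-3, had 11.67, 11.82 and 11.59 log2 units with rosiglitazone, against 11.23, 11.29 and 11.19 untreated. The rosiglitazone arrays all lay above the untreated arrays, and the gap exceeded the spread within each group. The log2 change was 0.46, 1.37-fold higher (interval 0.10 to 0.82), and did not pass (unadjusted p = 0.0184, adjusted p = 0.27). It passed, as the 1 gene of the 27 to do so in any other setting, without background correction and on the authors' normalized table, with adjusted p = 0.0486 and 0.0487. Both settings gave the same median log2 change over the 27 genes, 0.0796, so they do not count as separate results.

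Dtx3l, a ubiquitin ligase that works with PARP9, had a log2 change of 0.09 by its brightest probe and -0.30 by a dimmer one, and 0 of them passed. Parp12, a mono-ADP-ribosyltransferase, had 0.10 and Trim30a, a regulator of innate immune signalling, 0.26. The value of Trim30a was 0.56 without untreated replicate 1 and 0.0105 without untreated replicate 3. It was detected on 3 rosiglitazone and 2 untreated arrays. On untreated replicate 3 it was not detected, at 4.62 log2 units, so its value rests partly on signal at background. Ifi27 had 11.54, 11.81 and 12.08 log2 units with rosiglitazone, against 11.83, 11.57 and 11.91 untreated, a log2 change of 0.04 (interval -0.39 to 0.48, adjusted p = 0.96). Ifi35, Sp100 and Rtp4 had log2 changes of 0.16, 0.04 and -0.08. Ifi35 had rosiglitazone arrays from 5.48 to 7.02 log2 units and untreated arrays from 5.83 to 6.54. Rtp4 was detected on 1 of 3 rosiglitazone and 2 of 3 untreated arrays, so its value rests on signal near background. Parp9 was detected on 1 rosiglitazone array by each of its 2 probes and Xaf1 on 0 arrays, and neither was tested.

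The 10 kept genes with an ISRE match had 6 positive and 4 negative changes and a median log2 change of 0.10, from -0.53 for Bst2 to 0.58 for Ifit3. The 12 kept genes with a promoter but no match in the window had 11 positive changes and 1 negative, and a median of 0.22, from -0.59 for Samhd1 to 0.81 for Cmpk2. Over all 9760 genes, 55.7% of changes were positive. The difference between the sets was not tested, and matches outside the window were not searched.

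The interferon-response genes varied between the arrays within each group. With 1 array per cohort, a difference between cohorts and one between arrays cannot be told apart. Untreated replicate 3 held the highest value of its group for 17 of the 27 genes, and untreated replicate 2 the lowest for 15; over all 9760 genes these shares were 35.9% and 34.9%. Rosiglitazone replicate 3 held the highest value for 14 genes, against 36.4% of all genes. The median deviation of the 27 genes from their group mean was -0.04, -0.05 and 0.13 on the rosiglitazone arrays and -0.02, -0.23 and 0.21 on the untreated arrays, while over all genes it lay between -0.0063 and 0.01. The SD within groups had a median of 0.29 log2 units over the 27 genes and 0.24 over all genes.

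Some marker sums followed these deviations across the arrays and others did not. Endothelial markers had summed levels of 2154, 2277 and 5390 on the rosiglitazone arrays and 3397, 2920 and 4395 on the untreated arrays, highest on replicate 3 in both groups, as for the interferon-response genes. All 10 listed endothelial markers had a kept probe. Mural cell markers, 8 kept of 10 listed, summed to 1430, 1672 and 2392 on the rosiglitazone arrays and 1818, 2458 and 4881 on the untreated arrays. This sum was also highest on replicate 3 in both groups. It was carried by Acta2, at 9.89, 10.69 and 11.99 log2 units untreated. On untreated replicate 3, Des, Myh11 and Abcc9 were also highest of the group, while Rgs5, Notch3 and Mcam were lowest. Of the 8 mural genes, 2 passed, both lower with rosiglitazone: Notch3 fell by 1.19 and Mcam fell by 0.93 on the log2 scale (limma adjusted p = 0.0432 and 0.0198). Untreated replicate 2 had the lowest total intensity, and erythroid markers, 4 kept of 6 listed, summed to 44330 there, against 11320 and 2296 on the other untreated arrays; they summed to 3488 to 5807 on the rosiglitazone arrays. Macrophage and monocyte markers summed to 5619, 6477 and 2538 on the rosiglitazone arrays, lowest on replicate 3. Untreated, they summed to 24420, 19240 and 22120. Adipose progenitor markers summed to 43440, 45810 and 46970 with rosiglitazone. Untreated, they summed to 41420, 44970 and 37990, lowest on replicate 3. The part of these features in the deviations was not tested.

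**Figure D4:**
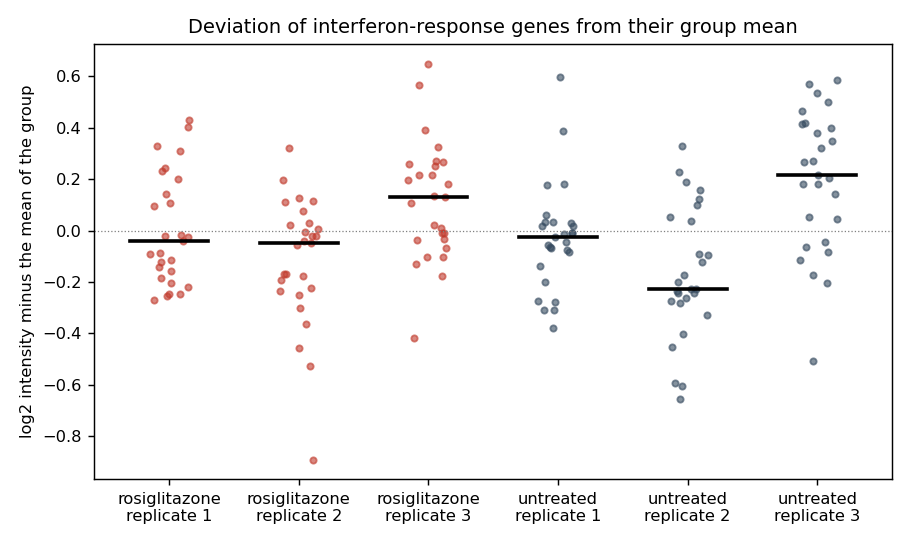
Log2 intensity of each of the 27 interferon-response genes minus the mean of its group, on the 3 rosiglitazone arrays (red) and the 3 untreated arrays (dark), with the median of each array as a black bar. The medians range from -0.05 to 0.13 with rosiglitazone and from -0.23 to 0.21 untreated.

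Other genes of the pathway were read from a list of 126 further genes, of which 79 had a kept probe. By their brightest probes, 0 rose and 4 fell (Ptpn6, Irf5, Tlr7 and Irf8), where 2.21% of all genes fell. The median log2 change was -0.0015, with 39 positive and 40 negative changes. Of 10 listed interferon genes, 2 had a kept probe, both dim. Ifng, the gamma interferon, had 4.73 to 4.82 log2 units with rosiglitazone and 4.40 to 5.03 untreated.

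Receptor chains and kinases of the pathway did not pass in either direction. Ifnar2 had 5.56, 5.87 and 5.74 log2 units with rosiglitazone, against 5.83, 5.74 and 5.51 untreated, a log2 change of 0.03 (interval -0.37 to 0.42, adjusted p = 0.97), and its other kept probe had -0.40 (adjusted p = 0.63). Ifngr1 had 8.30, 8.27 and 9.11 log2 units with rosiglitazone, against 8.25, 8.68 and 8.63 untreated, a log2 change of 0.04. Ifngr2 had 8.72, 8.41 and 8.65 log2 units with rosiglitazone, against 8.48, 9.03 and 8.69 untreated, a log2 change of -0.14, and its other kept probes had 0.04 and 0.22. The groups overlapped for each of these chains. Il10rb, a receptor chain shared by interleukin 10 and lambda interferons, had 6.15, 6.09 and 6.42 log2 units with rosiglitazone, against 6.84, 6.73 and 6.86 untreated. All its rosiglitazone arrays were lower than the untreated arrays, and the log2 change of -0.59 did not pass (interval -0.97 to -0.21, unadjusted p = 0.00627, adjusted p = 0.15). Jak1 had 6.51, 6.80 and 5.91 log2 units with rosiglitazone, against 6.94, 6.17 and 6.22 untreated, a log2 change of -0.04, and its other kept probes had 0.32 and 0.11. Tyk2 had 7.35, 7.13 and 7.41 log2 units with rosiglitazone, against 7.27, 7.11 and 7.38 untreated, a log2 change of 0.05. The groups overlapped for the brightest probes of both kinases, and did not overlap for the Jak1 probe at 0.32 (adjusted p = 0.51). Irf3, the factor that starts interferon production after viral sensing, had 10.02, 9.94 and 10.32 log2 units with rosiglitazone, against 9.52, 9.66 and 9.80 untreated. Its groups did not overlap, and the log2 change of 0.43 did not pass (interval 0.03 to 0.83, adjusted p = 0.37); its other kept probes had 0.23 and -0.07. Ifnar1 had no kept probe.

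The 4 genes that fell are known chiefly from leukocytes. Ptpn6 encodes SHP-1, a phosphatase of blood cells that restrains JAK signalling. It had 6.42, 6.07 and 6.14 log2 units with rosiglitazone, against 8.31, 8.24 and 8.45 untreated, and fell by 2.13 on the log2 scale (interval -2.51 to -1.74, adjusted p = 0.000357). The groups lay far apart, and another kept Ptpn6 probe, detected on 0 rosiglitazone arrays, had -0.66 (adjusted p = 0.12). Irf5, a factor of inflammatory macrophages, had 5.91, 5.59 and 4.85 log2 units with rosiglitazone, against 7.12, 6.97 and 7.17 untreated, and fell by 1.64 (interval -2.21 to -1.07, adjusted p = 0.0068).

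Tlr7, an endosomal sensor of single-stranded RNA, had 4.45, 4.69 and 4.46 log2 units with rosiglitazone, against 5.59, 5.16 and 5.68 untreated. It was detected on 1 rosiglitazone array and on all 3 untreated arrays, and fell by 0.94 (interval -1.37 to -0.52, adjusted p = 0.0314). Irf8, a factor that myeloid cells need to mature, had 4.69, 4.97 and 4.79 log2 units with rosiglitazone, against 5.66, 5.43 and 5.79 untreated, and fell by 0.81 (interval -1.20 to -0.41, adjusted p = 0.0465). It was detected on 2 rosiglitazone arrays. The folds of Tlr7 and Irf8 rest partly on signal at background. Without 1 array at a time, the call of Tlr7 held in 1 of 6 fits and that of Irf8 in 0 of 6.

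Some but not all markers of leukocytes fell as these genes did. Pan-leukocyte markers, 6 kept of 7 listed, all fell, with summed levels of 149.4 to 320.9 with rosiglitazone and 906.5 to 1374 untreated; Ptprc had no kept probe. Markers of T, NK and B lymphocytes, 5 kept of 17 listed, had 0 past the threshold, with summed levels of 545.4 to 622.1 with rosiglitazone and 544.5 to 808.7 untreated. That sum was carried by Prf1, at 8.94 to 9.05 log2 units with rosiglitazone and 8.97 to 9.53 untreated, while the other kept markers lay near background, and Cd3d, Cd3e, Cd4, Cd8a and Ms4a1 had no kept probe. Of plasmacytoid dendritic cell markers, 3 kept of 6 listed, 1 passed the threshold: Pld4 fell by 1.84 on the log2 scale (adjusted p = 0.00624), while Siglech had -0.14. Their summed level was 4254 to 4837 with rosiglitazone and 3010 to 3696 untreated, and it was carried by Tcf4, at 12.04 to 12.21 log2 units with rosiglitazone and 11.42 to 11.71 untreated. The part of these cells in the falls of Ptpn6, Irf5, Tlr7 and Irf8 was not tested.

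**Figure D5:**
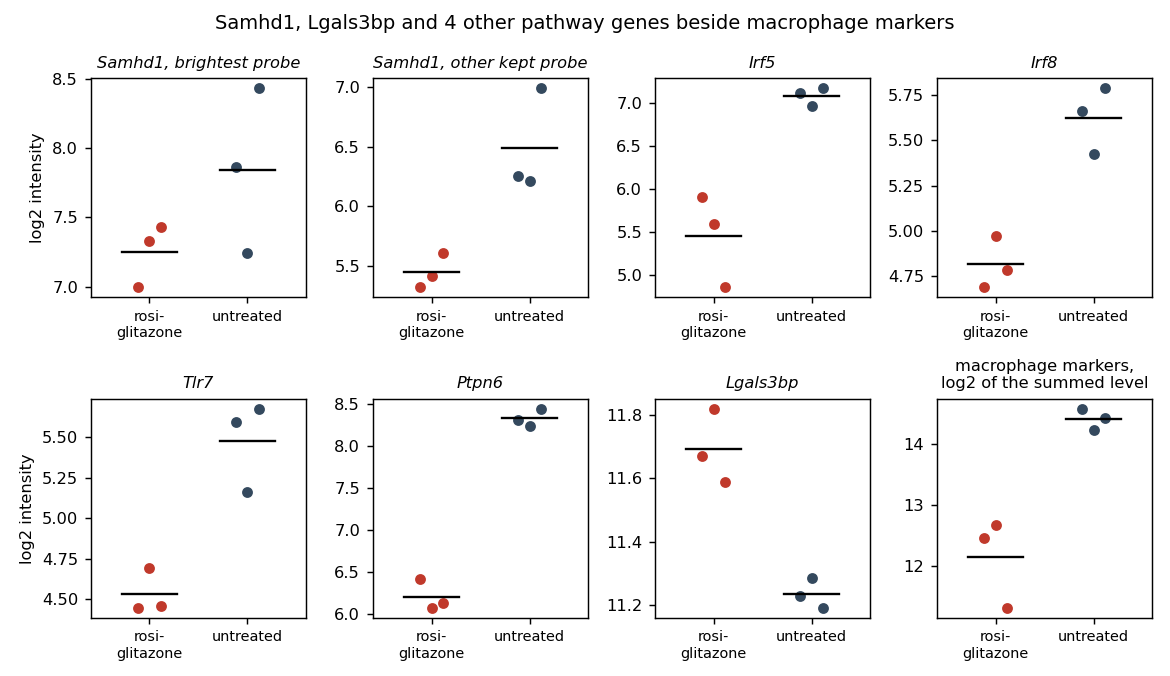
Log2 intensity on each array for Samhd1 (brightest and other kept probe), Irf5, Irf8, Tlr7, Ptpn6 and Lgals3bp, and the log2 of the summed level of 16 macrophage and monocyte markers. Points are arrays (rosiglitazone red, untreated dark), bars are group means, and each axis has its own range. Lgals3bp lies higher with rosiglitazone, and every other panel has a lower rosiglitazone mean.

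Some further genes are named after their values were seen. Ifi30, a lysosomal thiol reductase of antigen-presenting cells, missed the threshold on its brightest probe, with a log2 change of -1.05 (adjusted p = 0.0596). The second kept Ifi30 probe passed and was 2.47-fold lower (adjusted p = 0.0133). As a gene, Ifi30 passed with an offset of 50, with a trended and robust variance model, with kept probes averaged and without rosiglitazone replicate 2. It also passed at the looser threshold of 0.1, and in no other setting. Oasl1 had a log2 change of -1.05 (adjusted p = 0.17). Dhx58, a regulator of RNA sensing, had 0.51 and Mavs, the adaptor of RNA sensors at mitochondria, 0.55 (adjusted p = 0.26 and 0.34). Of 46 kept interferon-stimulated genes outside the 27, 0 passed by the brightest probe, with a median log2 change of -0.0016 and 22 positive and 24 negative changes. The inhibitors Socs1 and Socs3 had log2 changes of 0.34 and 0.01.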

How the data were processed

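The deposited non-normalized table gives an intensity per probe and array on a linear scale and a detection p-value that the authors deposited beside each. Intensity values that the authors normalized between arrays were deposited as well; their method is not given in the sources used here, and the series table equals them (largest difference 0). Per the labels' protocols, biotinylated cRNA was hybridised to Illumina arrays. Columns were assigned to samples by name.

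Background was corrected by normexp from the detection p-values (offset 16), followed by quantile normalization and log2 (neqc in limma 3.58.1, R 4.3.3). Fold changes on this scale understate changes of dim probes. Kept probes were fitted with lmFit and eBayes without covariates. Adjustment followed Benjamini and Hochberg over all 16442 kept probes. Levels are not compared between probes. The platform annotation named 34885 probes by 1 symbol, 18 by several, and 10378 were unnamed here. The code was tested on simulated data.

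The genes, lists and tests were chosen with earlier results of these data known. All genes were named; values per array are given for the 12 with the largest changes, the 4 regulators, the 3 brightest, pathway genes past the threshold, and the receptor chains, Jak1, Tyk2 and Irf3; Il10rb, Samhd1's dimmer probe, an Irf1 probe and ranges of a few others were added after values were seen. Marker sums subtract the offset. Alternatives covered background, normalization, source table, filter, variance model, array weights, replicate number as a block, arrays left out, probe averaging and threshold. Arrays carried no chip label, so no chip block was run.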

Additional observations from a re-analysis of the deposited data

How the results depend on the processing

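The count of interferon-response genes past the threshold was 0 in both directions in every setting but 2. Without background correction and on the authors' normalized table, 1 higher gene, Lgals3bp, passed. Those settings gave the same median log2 change and are not separate results. No detection filter and an adjusted p of 0.1 also gave 0. The median log2 change of the interferon-response genes ranged from 0.0011 to 0.24 when arrays were left out in turn and from 0.08 to 0.16 otherwise. The 4 pathway genes that fell became 2 without background correction, with median scaling, on the authors' normalized table and for probes detected on all 6 arrays, and 1, Ptpn6, with no detection filter; leaving out arrays gave 2 to 3, 2 without untreated replicates 1 or 3 or rosiglitazone replicates 1 or 3. Ptpn6 passed in 19 of 19 settings and Irf5 in 18 of 19, Tlr7 in 7 of 17 and Irf8 in 5 of 18. These settings include the 6 fits without 1 array. They also include the threshold of 0.1 on the main fit, which these 4 genes pass by construction. Small changes turned sign. With array weights Ifi35 was -0.18, Stat2 -0.11, Sp100 -0.0507, Irf7 -0.0417, Ifngr1 -0.0611, Tyk2 -0.0328 and Jak1 0.0696, and with all kept probes averaged Dtx3l was -0.10, Ifngr2 0.0412, Jak1 0.13 and Ifnar2 -0.19. Leaving out arrays gave ranges of -0.0913 to 0.18 for Ifi27, -0.0642 to 0.37 for Gbp3, -0.0662 to 0.37 for Dtx3l, -0.0098 to 0.38 for Isg15, -0.16 to 0.61 for Ifi35, -0.0819 to 0.31 for Stat2, -0.012 to 0.22 for Parp12, -0.10 to 0.17 for Sp100, -0.0096 to 0.51 for Ifit2, -0.26 to 0.14 for Oas2, -0.16 to 0.24 for Irf7, -0.20 to 0.0237 for Rtp4, -0.26 to 0.0082 for Ifngr2, -0.23 to 0.19 for Ifngr1, -0.0226 to 0.13 for Tyk2, -0.24 to 0.21 for Jak1 and -0.0634 to 0.11 for Ifnar2. Others kept their sign but moved by over 1.5 times: -0.31 to -0.0008 for Gbp2, 0.0806 to 0.52 for Oasl2, 0.29 to 0.84 for Ifit3, 0.0105 to 0.56 for Trim30a, -0.89 to -0.30 for Samhd1, 0.29 to 0.66 for Mx2, 0.22 to 0.52 for Usp18, 0.51 to 1.02 for Cmpk2, 0.19 to 0.47 for Irf1, -0.43 to -0.15 for Rsad2 and -0.17 to -0.0261 for Ifitm3. The cause was not tested. The replicate numbers are shared by both groups, but deviations of same-numbered arrays correlated at 0.04, -0.0054 and 0.35, and rosiglitazone replicate 1 correlated best with untreated replicate 2 (0.27); with the replicate number as a block 0 of the 27 genes passed, their median was 0.13, and 4 pathway genes fell, Oasl1 in place of Irf8, with 0 higher. Log2 before quantile normalization was added after seeing the data and kept 0 of 27 and 4 pathway genes. With 3 arrays a group, signal near background limits Rtp4, Trim30a, Tlr7 and Irf8.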
